A study of Rattus norvegicus with 6 samples.

Results

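The collagen genes of the deposited rat brain RNA-Seq table were examined in vascular smooth muscle cells (VSMCs) of arterioles and in mid-capillary pericytes (mcPCs), the mural cells of the capillary bed. Members were chosen by gene symbol alone: the collagen chain genes, and the lysyl hydroxylases (Plod), prolyl 4-hydroxylases (P4ha), prolyl 3-hydroxylases (P3h) and collagen galactosyltransferases (Colgalt) that modify the chains. This gave 51 of the 14607 rows of the table, made up of 38 rows of collagen chains, 12 of modifying enzymes and 1 row, Col4a3bp, that shares the first letters of a collagen symbol but encodes a ceramide transfer protein. All cells came from the brain cortex of male Sprague-Dawley rats aged 4 to 5 weeks, the labels give no genetic change or treatment, and each preparation pooled animals. The 3 mcPC samples were what remained of the filtered cell suspension once endothelial cells, microglia, astrocytes and oligodendrocytes had been pulled out, a negative selection. The 3 VSMC samples were picked from digested arterioles by their binding of a lectin, a positive selection, once endothelial cells and macrophages had been removed.

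The table holds a single mean per gene and cell type, so the values carry no SD, the authors' own test columns were not used here, and no p-value is given. Whether a difference exceeds the spread between samples was therefore not tested. Every level below is the authors' mean in TPM, a transcript's share of all transcripts in the library scaled to a fixed total, which takes transcript length into account and is the scale on which genes are compared with each other. Each difference between cell types is the log2 ratio of the authors' mean normalized counts, mcPCs over VSMCs, so a positive value is higher in mcPCs. The 95% interval after a ratio is an exact binomial (Clopper-Pearson) interval from the reads of both cell types and covers counting error only. "Past 2-fold" means a ratio of at least 2 in either direction. In such sorted preparations, fewer cells of a type and less RNA per cell cannot be told apart.

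Collagens are secreted proteins in which alpha chains wind around each other in a helix, and the chains a cell makes decide which assembly forms. Type IV chains build the sheet-like network of basement membranes, the layer in which mural cells of arterioles and capillaries are embedded. Fibrillar chains (types I, III, V and others) build the fibrils of the vessel wall, and further types coat fibrils, link them to basement membranes or span the cell membrane. In the endoplasmic reticulum, prolyl and lysyl hydroxylases modify the chains, which stabilises the helix and prepares it for cross-linking. Inherited defects of COL4A1 and COL4A2 are a known cause of small vessel disease of the brain.

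Summed over the table, 61978100 reads per sample fell on genes in VSMCs and 47990200 in mcPCs. All 8 VSMC markers, among them Acta2 and Myh11, were past 2-fold higher in the cells labelled VSMC, and all 6 capillary pericyte markers, among them Kcnj8 and Abcc9, were past 2-fold higher in the cells labelled mcPC. Hemoglobin and other erythrocyte genes made up 0.875% of TPM in VSMCs and 66.9% in mcPCs, so the TPM of any other gene in mcPCs is a share of what these genes leave. On TPM the median log2 ratio of all genes was -1.72, against 0.01 on normalized counts. Ratios between genes within a cell type do not depend on this scaling.

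Of the 51 members, 13 (25.5%) were past 2-fold higher in mcPCs, where 22.0% of all genes of the table were, a share near the background. Another 13 (25.5%) were past 2-fold higher in VSMCs, where 13.9% of all genes were. The median log2 ratio was 0.13 over the members, 0.15 over the chain genes and 0.18 over the enzymes, against 0.01 over all genes. The chain genes therefore had no common direction, and their ratios ran from -6.25 to 6.17. On TPM with a pseudocount of 0.1, a scale that lowers all genes in mcPCs, the split became 6 higher in mcPCs and 33 higher in VSMCs, beside 7.0% and 72.3% of all genes. On the 5 scales other than TPM as deposited, 9 of the 13 stayed past 2-fold higher in mcPCs: Col16a1, Col25a1, Col26a1, Col5a3, Col6a1, Col7a1, Col8a2, Col9a3 and Plod1. Of these, Col5a3, Col6a1 and Col7a1 were past 2-fold on TPM as deposited with either pseudocount too. Among the 9, Col25a1, Col26a1 and Col9a3 were low in VSMCs, at 0.445, 0.0430 and 0.235 TPM. The study removed genes under 0.8 TPM in VSMCs from its final dataset, an empirical cut set after viewing neuronal, glial and endothelial transcripts. In VSMCs, Col13a1, Col14a1, Col18a1, Col22a1, Col24a1, Col4a5, Col5a1 and P3h2 stayed past 2-fold higher on all 7 scales.

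**Figure D1:**
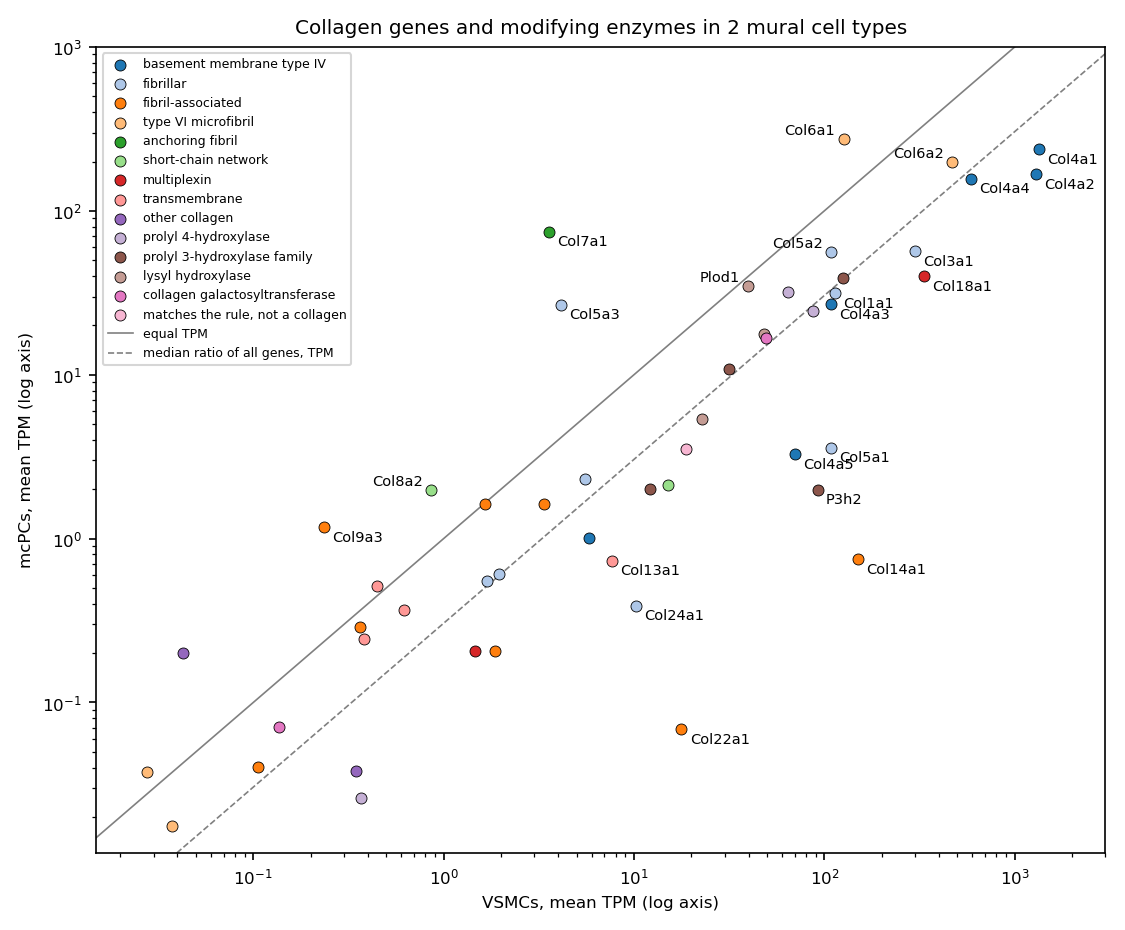
Mean TPM of each member in VSMCs (horizontal, log axis) and in mcPCs (vertical, log axis), coloured by class. Solid line, equal TPM; dashed line, the median ratio of all genes on this scale. Col7a1, Col5a3 and Col6a1 lie above the solid line, and Col14a1, Col22a1, P3h2, Col5a1 and Col4a5 lie far under the dashed line.

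Chain transcripts made up 0.521% of TPM in VSMCs and 0.138% in mcPCs, and with erythrocyte genes left out of both totals the shares were 0.526% and 0.416%. Both cell types drew most of this from a few genes, but not in the same order. In VSMCs the leading chain genes were Col4a1, Col4a2, Col4a4, Col6a2, Col18a1, Col3a1, Col14a1, Col6a1, Col1a1 and Col4a3, which together held 92.8% of chain TPM. In mcPCs they were Col6a1, Col4a1, Col6a2, Col4a2, Col4a4, Col7a1, Col3a1, Col5a2, Col18a1 and Col1a1, with 94.3%. Type IV chains took 65.6% of chain TPM in VSMCs and 43.3% in mcPCs. Type VI chains took 11.4% in VSMCs and 34.5% in mcPCs, and fibrillar chains took 12.6% and 13.0%. These shares and rankings leave out Col1a2, held under another symbol on 2 rows outside the rule. Those rows stood at 211 and 62.2 TPM in VSMCs and at 43.1 and 9.23 TPM in mcPCs. The larger row alone was above Col14a1 in VSMCs and above Col18a1 in mcPCs. The fibrillar shares are therefore incomplete and give no order of the cell types. Not all other chain genes were low: Col5a1 and Col4a5 stood at 108 and 70.1 TPM in VSMCs, and Col5a3 at 26.8 TPM in mcPCs. Under 0.8 TPM in both cell types were 9 of the 38 chain rows.

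**Figure D2:**
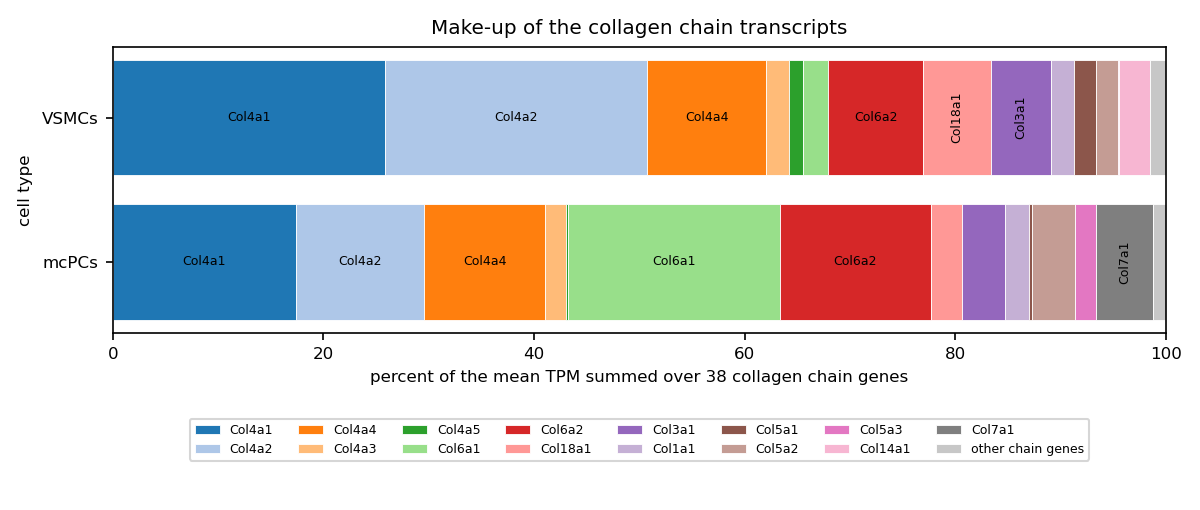
Make-up of the collagen chain transcripts in each cell type, as percent of the mean TPM summed over the 38 chain rows (horizontal axis), with one bar per cell type and one colour per gene. Col4a1 and Col4a2 hold 50.8% of the VSMC bar and 29.6% of the mcPC bar, while Col6a1 widens from 2.43% to 20.1% and Col7a1 reaches 5.44% in mcPCs.

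The type IV genes sit in the rat genome as head-to-head pairs that start close together and run in opposite directions. In the RefSeq annotation of GRCr8, the Col4a1 and Col4a2 start sites are 77 bases apart on chromosome 16, the Col4a3 and Col4a4 start sites are 413 bases apart on chromosome 9, and the Col4a5 and Col4a6 start sites are 1415 bases apart on chromosome X. The promoter window of each gene, from 250 bases before to 50 bases after its start, is shown for Col4a1 (chr16:84885347-84885646, plus strand) and Col4a3 (chr9:91323740-91324039, plus strand), since these windows overlap that of the partner gene. Capitals mark the bases that also lie in the window of Col4a2, 176 bases, or of Col4a4, 88 bases. The windows of Col4a5 and Col4a6 shared no base.
Col4a1: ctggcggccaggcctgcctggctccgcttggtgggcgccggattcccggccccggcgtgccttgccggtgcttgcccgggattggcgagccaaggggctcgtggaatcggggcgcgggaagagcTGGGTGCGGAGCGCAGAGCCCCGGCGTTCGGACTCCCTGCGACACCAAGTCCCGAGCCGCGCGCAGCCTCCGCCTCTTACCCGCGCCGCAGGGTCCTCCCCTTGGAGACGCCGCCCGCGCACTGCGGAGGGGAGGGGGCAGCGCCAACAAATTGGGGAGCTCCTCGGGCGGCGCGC
Col4a3: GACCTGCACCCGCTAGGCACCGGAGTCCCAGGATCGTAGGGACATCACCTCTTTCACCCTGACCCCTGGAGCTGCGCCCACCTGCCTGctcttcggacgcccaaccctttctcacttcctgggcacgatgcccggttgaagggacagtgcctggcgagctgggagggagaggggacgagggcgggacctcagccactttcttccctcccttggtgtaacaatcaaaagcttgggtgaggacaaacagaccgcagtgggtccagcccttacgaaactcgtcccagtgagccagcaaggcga

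Col4a1 (ENSRNOG00000016281), a chain of nearly all basement membranes, stood at 1346 TPM in VSMCs and at 239 in mcPCs, with a log2 ratio of -0.67 (-0.67 to -0.66). Its partner Col4a2 (ENSRNOG00000023972) stood at 1295 TPM and 167 TPM, with a log2 ratio of -1.13 (-1.14 to -1.13), just past 2-fold. Both chains were at or above the 98th percentile of all genes in either cell type. Col4a2 had 0.962 of the TPM of Col4a1 in VSMCs and 0.701 in mcPCs, so the pair was nearly even in VSMCs and tilted to Col4a1 in mcPCs. On counts scaled without erythrocyte genes the log2 ratio of Col4a2 was -0.97, no longer past 2-fold.

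The Col4a3, Col4a4 and Col4a5 chains form the network known from the kidney filter, where their loss causes Alport syndrome. Col4a4 stood at 589 TPM in VSMCs and at 157 in mcPCs, and its log2 ratio was -0.06 (-0.07 to -0.05). Col4a3 stood at 109 and 27.0 TPM, with a log2 ratio of -0.19 (-0.21 to -0.18). This pair was therefore nearly level between the cell types on normalized counts, and Col4a4 had 5.41 times the TPM of Col4a3 in VSMCs and 5.83 times in mcPCs. With a row described as alpha-3(IV)-like, outside the rule, added to Col4a3, these became 4.41 and 3.57 times, so the order of the cell types rests on how reads were divided between those rows. Col4a5 differed from them, with 70.1 TPM in VSMCs and 3.27 in mcPCs and a log2 ratio of -2.70 (-2.75 to -2.66), or 6.51-fold higher in VSMCs. Per unit of Col4a1 TPM, Col4a5 was at 0.0521 in VSMCs and 0.0137 in mcPCs, and Col4a3 was at 0.0808 and 0.113. Col4a6, which joins Col4a5 in the basement membrane of smooth muscle, was low, with 5.79 and 1.01 TPM and a log2 ratio of -0.82 (-0.92 to -0.72). All 6 type IV genes of the rule thus had a log2 ratio under 0, with a class median of -0.75, against 0.01 over all genes. The alpha-3(IV)-like row outside the rule had a log2 ratio of 1.29, past 2-fold higher in mcPCs. Of the 6, 2 were past 2-fold higher in VSMCs, as were 13.9% of all genes. On counts scaled without erythrocyte genes Col4a4 turned to 0.43, and the other 5 stayed under 0. That scale makes no allowance for transcript length, and the mean length of Col4a4 was 27.6% longer in mcPCs. On TPM scaled without erythrocyte genes the log2 ratio of Col4a4 was -0.32. Within the head-to-head pairs, the log2 ratio of Col4a2 was lower than that of Col4a1 by a difference of -0.47, that of Col4a4 above that of Col4a3 by 0.13, and that of Col4a6 above that of Col4a5 by 1.88.

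Across members, 42 of the 50 symbols had a promoter window in the RefSeq table, and 4 motifs were searched on both strands. The GC box, read as GGGCGG, lay in 29 of these 42 windows (69.0%), against 33.1% of all 33469 windows. The CCAAT box lay in 9 (21.4%, against 37.5%), among them Col4a1 and Col4a2, whose windows overlap, and Col5a3. TATAAA lay in Col13a1 and Colgalt2, 4.76% against 14.2% of all windows. The CArG box, the sequence bound by serum response factor in smooth muscle genes, lay in Col6a4 alone, 2.38% against 1.64%. The 33469 windows are the whole RefSeq set and were not limited to the 14607 rows with reads in every sample. Members and background are therefore unlike sets. These are letter matches, in one window per member, and say nothing on which factor binds.

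**Figure D3:**
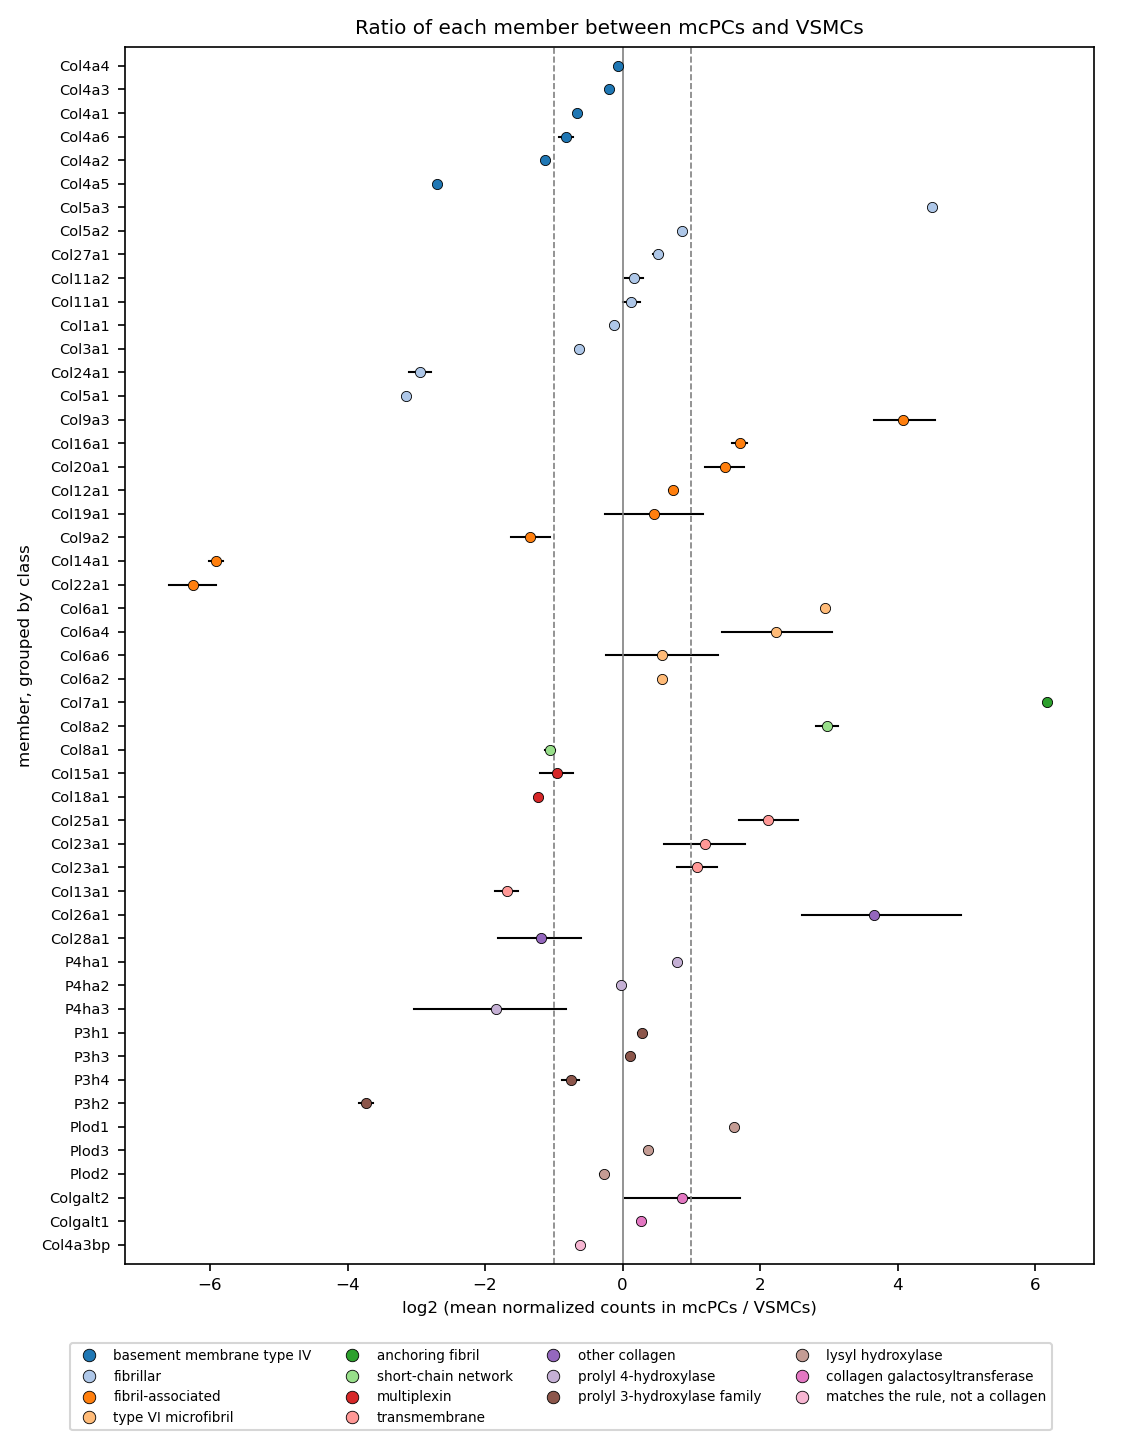
Log2 ratio of mean normalized counts, mcPCs over VSMCs (horizontal axis), for each member (vertical axis), grouped and coloured by class. Bars are 95% exact counting intervals and cover counting error only; dashed lines mark 2-fold. The 2 points named Col23a1 are separate rows of the table. Fibrillar and fibril-associated chains spread to both sides, while all type IV points lie left of 0.

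Of the 9 fibrillar chain genes, 1 was past 2-fold higher in mcPCs, 2 in VSMCs and 6 in neither, beside 22.0%, 13.9% and 64.1% of all genes. Col3a1 and Col1a1, which make the bulk of vessel wall fibrils, stood at 300 and 114 TPM in VSMCs and at 56.5 and 31.6 TPM in mcPCs. Their log2 ratios were -0.63 (-0.64 to -0.61) for Col3a1 and -0.13 (-0.14 to -0.11) for Col1a1, both within 2-fold. The partner chain of type I, Col1a2, is held under another symbol on 2 rows outside the rule, at 211 and 62.2 TPM in VSMCs and at 43.1 and 9.23 TPM in mcPCs. Their log2 ratios of -0.52 and -0.98 were within 2-fold too. Reads could have been split between these rows, so neither gives the full level of Col1a2.

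The largest shift among fibrillar chains was inside type V, a collagen that joins type I fibrils and limits their width. Col5a1 (ENSRNOG00000008749) stood at 108 TPM in VSMCs and at 3.58 in mcPCs, with a log2 ratio of -3.15 (-3.20 to -3.11), 8.89-fold higher in VSMCs. Col5a3 (ENSRNOG00000020525) went the other way, with 4.13 TPM in VSMCs, 26.8 TPM in mcPCs and a log2 ratio of 4.51 (4.45 to 4.56), 22.7-fold higher in mcPCs. Col5a2 stood between them at 109 and 55.8 TPM, with a log2 ratio of 0.86 (0.85 to 0.88). In VSMCs, Col5a1 and Col5a2 were at equal levels, with a TPM ratio of 0.998, and Col5a3 was at 0.0381 of Col5a1. In mcPCs, Col5a1 was at 0.0641 of Col5a2, and Col5a3 was at 7.48 times Col5a1. The TPM ratio of Col5a3 to Col5a1 was 196-fold higher in mcPCs, and since both genes were read in the same libraries this figure needs no scaling between cell types. On normalized counts the log2 ratio of Col5a3 lay above that of Col5a1 by 7.66 (7.59 to 7.73).

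Col24a1, a minor fibrillar chain, was 7.67-fold higher in VSMCs, with 10.2 and 0.389 TPM and a log2 ratio of -2.94 (-3.10 to -2.78). The other minor chains, Col11a1, Col11a2 and Col27a1, were between 1.69 and 5.53 TPM in VSMCs and between 0.552 and 2.30 TPM in mcPCs. Their log2 ratios of 0.13, 0.17 and 0.52 were all within 2-fold.

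Fibril-associated collagens do not build fibrils but sit on their surface. Col14a1 (ENSRNOG00000026415), which binds type I fibrils, stood at 151 TPM in VSMCs, the 93.1st percentile of all genes, and at 0.751 TPM in mcPCs, the 20.9th percentile. Its log2 ratio was -5.91 (-6.01 to -5.82), 60.3-fold higher in VSMCs, which placed it at rank 71 of all 14607 genes counted from the VSMC side. Col22a1 (ENSRNOG00000024824), known from the junction of muscle and tendon, stood at 17.7 TPM in VSMCs and at 0.0687 in mcPCs. Its log2 ratio of -6.25 (-6.60 to -5.92) was the lowest of the members, at rank 53 from the VSMC side, and rested on 3319 reads per sample in VSMCs and 24.3 in mcPCs.

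The other 6 genes of the class were all under 4 TPM in both cell types. Col16a1 stood at 1.65 and 1.63 TPM, with a log2 ratio of 1.70 (1.59 to 1.82) on normalized counts and 1.71 on TPM relative to the median gene. Col20a1, at 0.362 and 0.291 TPM, had a log2 ratio of 1.48 (1.20 to 1.77) and 0.88 on counts scaled to the same total, no longer past 2-fold. Type IX chains, known from cartilage, diverged: Col9a2 stood at 1.86 and 0.205 TPM with a log2 ratio of -1.34 (-1.63 to -1.06), and Col9a3 at 0.235 and 1.18 TPM with a log2 ratio of 4.09 (3.66 to 4.55). The TPM ratio of Col9a3 to Col9a2 was 0.126 in VSMCs and 5.74 in mcPCs. Col12a1 and Col19a1 were within 2-fold, with log2 ratios of 0.74 and 0.46.

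Type VI collagen forms beaded microfibrils next to basement membranes, and its chains are made together in the cell. Col6a1 (ENSRNOG00000001249) stood at 126 TPM in VSMCs and at 275 in mcPCs, the highest chain gene of mcPCs. Its log2 ratio was 2.95 (2.93 to 2.96), 7.71-fold higher in mcPCs. Col6a2, at 468 and 197 TPM, had a log2 ratio of 0.57 (0.56 to 0.58), within 2-fold. The balance of these partner chains was thus turned over: Col6a2 had 3.71 times the TPM of Col6a1 in VSMCs and 0.718 times in mcPCs. On normalized counts the log2 ratio of Col6a2 differed from that of Col6a1 by -2.37 (-2.39 to -2.36). Col6a4 and Col6a6 were at most 0.0375 TPM in either cell type, with 6.67 to 16.7 reads per sample, and their log2 ratios of 2.23 (1.45 to 3.05) and 0.58 (-0.24 to 1.39) rest on these few reads. The table has no row under the symbol Col6a3, so the type VI shares and the balance of chains above leave that chain out.

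Col7a1 (ENSRNOG00000020579), the chain of the anchoring fibrils that hold the skin's basement membrane to the dermis, had the highest ratio of all members. It stood at 3.59 TPM in VSMCs, the 29.8th percentile of all genes, and at 74.6 TPM in mcPCs, the 96.8th percentile. Its log2 ratio was 6.17 (6.13 to 6.22), 72.1-fold higher in mcPCs, at rank 188 of all genes counted from the mcPC side. The difference rested on 1277 reads per sample in VSMCs and 48965 in mcPCs. In mcPCs, Col7a1 was at 0.313 of the TPM of Col4a1 and at 2.36 times that of Col1a1, and in VSMCs it was at 0.0315 of Col1a1.

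The network-forming type VIII chains, known from the vessel wall and the cornea, also diverged. Col8a1 stood at 15.0 TPM in VSMCs and at 2.13 in mcPCs, with a log2 ratio of -1.06 (-1.13 to -0.99). Col8a2 stood at 0.859 and 1.97 TPM, with a log2 ratio of 2.97 (2.82 to 3.13), 7.84-fold higher in mcPCs. Col8a2 was therefore at 0.0571 of Col8a1 in VSMCs and at 0.928 of it in mcPCs, nearly even. On counts scaled without erythrocyte genes the log2 ratio of Col8a1 was -0.81, within 2-fold.

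Col18a1, a basement membrane collagen whose end piece is released as endostatin, stood at 333 and 39.9 TPM, with a log2 ratio of -1.24 (-1.25 to -1.22), 2.35-fold higher in VSMCs. Its relative Col15a1 was low, at 1.46 and 0.207 TPM, with a log2 ratio of -0.96 (-1.20 to -0.72), and a row outside the rule described as alpha-1(XV)-like was not added to it. Among the collagens that span the cell membrane, Col13a1, known from the neuromuscular junction, was 3.22-fold higher in VSMCs, at 7.65 and 0.734 TPM, with a log2 ratio of -1.69 (-1.85 to -1.52). Col25a1, found in amyloid plaques of the brain, and both rows of Col23a1 were higher in mcPCs on normalized counts, with log2 ratios of 2.12, 1.08 and 1.20. All 3 rows were under 0.8 TPM in both cell types, and both Col23a1 rows were within 2-fold on TPM scaled without erythrocyte genes, at 0.74 and 0.78. Col26a1 and Col28a1 were under 0.4 TPM in both, with log2 ratios of 3.66 (2.61 to 4.93) and -1.18 (-1.81 to -0.60).

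Among the 12 modifying enzymes, 1 was past 2-fold higher in mcPCs and 2 in VSMCs, and 9 were within 2-fold. Of all genes, 22.0% and 13.9% were past 2-fold in these directions. P3h2 (ENSRNOG00000055751), a prolyl 3-hydroxylase that acts on type IV chains, stood at 92.2 TPM in VSMCs and at 1.99 in mcPCs. Its log2 ratio was -3.73 (-3.83 to -3.63), 13.2-fold higher in VSMCs. The others of this family differed little: P3h1 stood at 31.7 and 10.9 TPM with a log2 ratio of 0.28 (0.23 to 0.33), P3h3 at 126 and 38.8 TPM with 0.11 (0.08 to 0.13), and P3h4, which has no enzyme activity of its own, at 12.2 and 2.02 TPM with -0.75 (-0.88 to -0.63). P3h2 had 2.91 times the TPM of P3h1 in VSMCs and 0.184 times in mcPCs.

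Plod1, the lysyl hydroxylase that acts in the helix, stood at 39.9 and 34.8 TPM, with a log2 ratio of 1.62 (1.59 to 1.66), 3.08-fold higher in mcPCs. On TPM relative to the median gene its log2 ratio was 1.52. Plod2, which acts on the chain ends, stood at 22.9 and 5.38 TPM with a log2 ratio of -0.27 (-0.32 to -0.22), and Plod3, which also adds sugars, at 48.5 and 17.8 TPM with 0.38 (0.34 to 0.41). Within a cell type, Plod1 had 0.823 of the TPM of Plod3 in VSMCs and 1.95 times in mcPCs. The prolyl 4-hydroxylase subunits that stabilise the helix were P4ha1, at 64.5 and 31.8 TPM with a log2 ratio of 0.80 (0.77 to 0.83), and P4ha2, at 86.8 and 24.4 TPM with -0.02 (-0.05 to 0.01). P4ha3 was at 0.368 and 0.0260 TPM, and its log2 ratio of -1.84 (-3.03 to -0.83) rested on 22 and 3 reads per sample. Colgalt1, which adds galactose to hydroxylysine, stood at 49.2 and 16.7 TPM with a log2 ratio of 0.26 (0.23 to 0.30), and Colgalt2 was under 0.2 TPM in both cell types, with a log2 ratio of 0.87 (0.03 to 1.70).

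**Figure D4:**
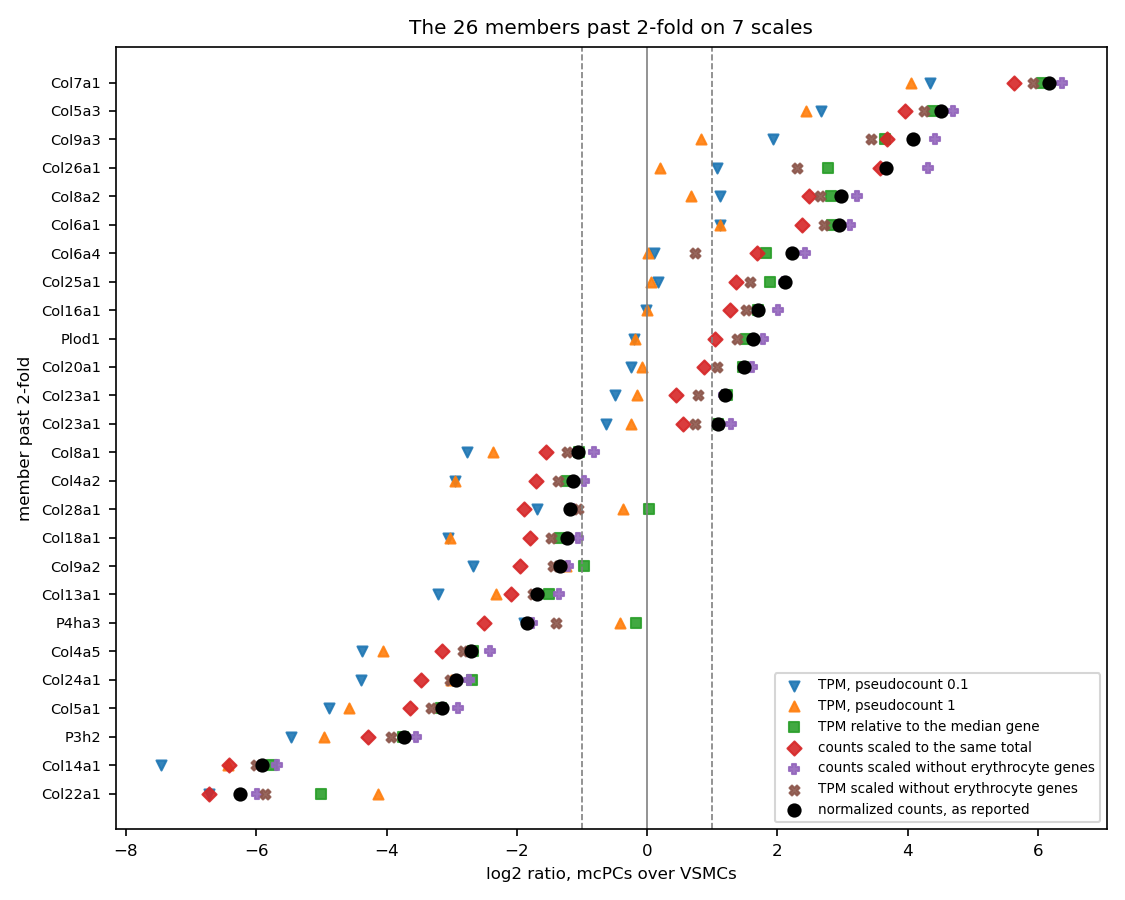
Log2 ratio, mcPCs over VSMCs (horizontal axis), of the 26 members past 2-fold (vertical axis) on the reported scale (black) and on 6 others (coloured). The dashed lines mark 2-fold. Col7a1, Col5a3 and Col6a1 stay right of 2-fold on every scale, Plod1, Col16a1, Col20a1 and both Col23a1 rows cross 0 only on TPM as deposited, where the median of all genes was -1.72 or -1.43, and P4ha3 and Col28a1 come close to 0 on TPM relative to the median gene.

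Effective transcript length, which the choice of members did not use, was the same within 0.1% in both cell types for 43 of the 51 members and for 76.5% of all genes. A shift of over 10% was seen in 1 member, beside 4.27% of all genes. This was Col4a4, at 3349 bases in VSMCs and 4275 bases in mcPCs, 27.6% longer in mcPCs, so the mean length of the transcripts counted differed between the preparations. The annotated transcripts behind the shift were not separated here. The next widest shifts were 8.02% for Col26a1 and -5.33% for Col11a2.

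Other genes of the collagen pathway were taken from lists by step, and only listed genes with a row in the table are counted. Of 12 folding and export partners, 1 was past 2-fold higher in mcPCs and 2 in VSMCs, beside 22.0% and 13.9% of all genes. The collagen chaperone Serpinh1 stood at 879 and 299 TPM with a log2 ratio of 0.28, and P4hb, the partner subunit of the prolyl 4-hydroxylases, at 269 and 67.4 TPM with -0.17. Ppib, which works with P3h1, was 1.19 on the log2 scale and so past 2-fold higher in mcPCs. Sec23a, which coats export vesicles, and Tmem38b, an ion channel of the endoplasmic reticulum, were past 2-fold higher in VSMCs, at -1.17 and -1.07. The other 9 genes were within 2-fold, as were 9 of the 12 modifying enzymes, beside 64.1% of all genes.

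Later steps take place outside the cell, and their counts stand beside 22.0% of all genes past 2-fold higher in mcPCs and 13.9% in VSMCs. Of 6 genes of propeptide cleavage, 2 were past 2-fold in each direction, and the procollagen protease Adamts14 stood at 102 TPM in VSMCs and at 2.33 in mcPCs, a log2 ratio of -3.68. Those higher in mcPCs were near the floor: Adamts3 at 0.214 and 0.235 TPM, and Tll1 at 0.128 and 0.149 TPM. Of 7 cross-linking genes, 3 were past 2-fold higher in mcPCs and 2 in VSMCs. Loxl4, counted as higher in mcPCs, was at 0.0289 and 0.0209 TPM, with 3.33 and 4.33 reads per sample. Lox, the founding lysyl oxidase, stood at 414 TPM in VSMCs and at 3.08 in mcPCs, a log2 ratio of -5.22, and Tgm2 had a log2 ratio of -2.46. The Lox relatives Loxl2 and Loxl3 had log2 ratios of 1.56 and 1.42, with 21.3 and 17.9 TPM in VSMCs and 17.7 and 13.4 TPM in mcPCs.

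Of 7 collagen receptors, Mrc2, which takes collagen up into the cell, was past 2-fold higher in mcPCs, at 5.06 and 25.9 TPM with a log2 ratio of 4.18, and Itga1 in VSMCs, with -1.11. Of 12 genes of collagen breakdown, 5 were past 2-fold higher in mcPCs and 4 in VSMCs. All 4 genes past 2-fold in VSMCs were protease inhibitors, Timp1, Timp2, Timp3 and Timp4, with log2 ratios of -1.57, -2.74, -2.06 and -3.88. The 5 in mcPCs were the proteases Ctsk, Mmp13, Mmp15 and Mmp16 and the inhibitor Reck, with log2 ratios of 3.41, 1.01, 4.57, 3.02 and 1.20. Mmp16 was at only 0.148 and 0.368 TPM. Mmp13, at 1.37 and 0.813 TPM, had an interval of 0.81 to 1.20, and 0.46 on counts scaled to the same total. The proteases Mmp14, Mmp2 and Mmp9 were within 2-fold, with log2 ratios of -0.27, -0.08 and -0.67. Mmp14 stood at 145 and 33.8 TPM. The members of each list are few, and no test stands behind these counts.

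**Figure D5:**
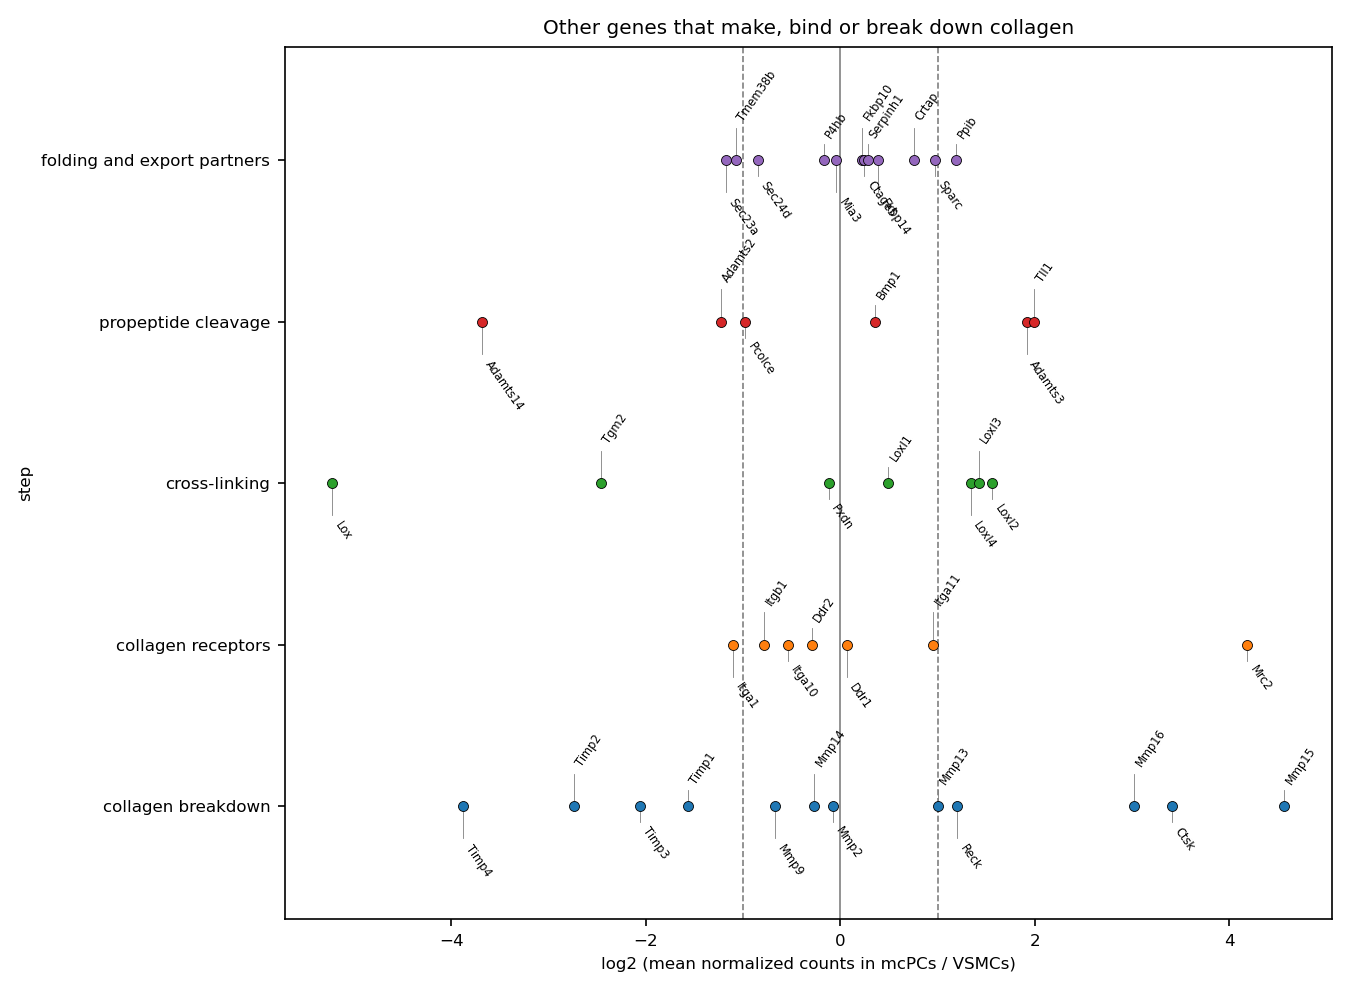
Log2 ratio of mean normalized counts, mcPCs over VSMCs (horizontal axis), of genes that fold, cleave, cross-link, bind or break down collagen (vertical axis, by step), each point a gene. The dashed lines mark 2-fold. Lox (-5.22), Timp4 (-3.88) and Adamts14 (-3.68) lie farthest to the left, and Mmp15 (4.57) and Mrc2 (4.18) farthest to the right.

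Markers of other cell types moved with the cell type as well, and their part in the collagen values was not tested. Of 15 rows of fibroblast markers, a cell rich in collagen, 11 were past 2-fold higher in mcPCs and 3 in VSMCs, and their summed level was 5306 TPM in VSMCs and 960 in mcPCs. Mgp (4440 and 701 TPM) and Fmod (581 and 0.981 TPM) carried these sums, and the other 13 rows summed to 285 and 259 TPM. The rows higher in VSMCs were Fmod, with a log2 ratio of -7.43, and both rows of Ogn, with -2.88 and -2.99. None was at 0: Dcn stood at 18.7 and 16.9 TPM, Lum at 5.19 and 4.86 TPM, Pdgfra at 0.575 and 1.03 TPM, and Slc6a13 at 3.06 and 132 TPM. Of 19 endothelial markers, 15 were past 2-fold higher in mcPCs, with sums of 661 and 346 TPM, and 59.4 and 138 TPM without Esam and Slc2a1, both within 2-fold. Cldn5 stood at 0.643 and 15.4 TPM. Microglial, neuronal and astrocyte markers were past 2-fold higher in mcPCs in 5 of 5, 4 of 4 and 5 of 5 genes, with sums of at most 1.04 TPM in VSMCs and from 9.45 to 19.9 TPM in mcPCs. These lists held 12, 9 and 8 genes, and the genes not counted had no row in the table. Oligodendrocyte markers, 6 of 8 with a row, were past 2-fold higher in mcPCs in 5 of 6 genes, with sums of 19.8 and 18.4 TPM. All these marker counts stand beside 22.0% of all genes past 2-fold higher in mcPCs and 13.9% in VSMCs. The marker sums are on TPM as deposited, where erythrocyte genes took 66.9% in mcPCs and 0.875% in VSMCs. Sums in mcPCs are thereby lowered against those in VSMCs, and near-equal sums do not show equal levels. The collagen values that were higher in mcPCs, Col7a1 at 74.6 TPM, Col6a1 at 275 TPM and Col5a3 at 26.8 TPM, stood beside these marker levels.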

How the data were processed

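Poly(A)+ RNA of 3 VSMC and 3 mcPC samples was sequenced in 4 runs per sample with a strand-specific kit. Per the labels and the study's methods, the authors estimated abundances with Salmon 0.8.0 on Rnor_6.0 transcripts, summed them per gene, normalized counts with DESeq2 and kept genes with reads in every sample. The deposited table holds the authors' means per cell type. TPM values are the authors' mean abundances. Estimated counts, deposited as the authors' means per run, were multiplied by 4 to give reads per sample (64.4% and 67.2% of the values of VSMCs and mcPCs were whole multiples of 1/12 within 0.001). Normalized counts are signal values, which the authors made by dividing counts by DESeq2's factors. Effective lengths are the authors' means too. It also holds the authors' fold changes, errors and p-values, which were not used here.

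Only means were used, so no test across samples was run, no sample was left out and isolations were not paired. Log2 ratios, counting intervals and shares were computed with Python 3.11.15, pandas 2.3.3 and scipy 1.17.1. Only the ratio of counts and its interval were tested on simulated data, which held counting error and no spread between samples. Named were the chain genes among the 10 highest by TPM, each member past 2-fold and each enzyme. The members and lists were chosen with earlier results of these data known. Promoter windows came from RefSeq tables of GRCr8, matched by gene ID. 6 other scales, filters on TPM and reads, and a threshold of 4-fold were tried. Marker sums without single genes, the alpha-3(IV)-like row added to Col4a3 and the calls without deposited TPM were added after the data were seen.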

Additional observations from a re-analysis of the deposited data

How the results depend on the processing

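The choice of scale moved the counts of members most. Past 2-fold higher in mcPCs were 13 members as reported, 6 on TPM with a pseudocount of 0.1 and 3 with a pseudocount of 1. The shares of all genes were 22.0%, 7.0% and 4.05%. Higher in VSMCs were 13 as reported, and 33 and 27 on those scales, beside 13.9%, 72.3% and 63.2% of all genes. With a minimum of 0.8 TPM in VSMCs, 6 of 39 members were higher in mcPCs (13.1% of all genes left). At 4-fold, 8 were higher in mcPCs and 6 in VSMCs (12.4% and 5.72% of all genes). The share of TPM in chain genes was 0.521% in VSMCs and 0.138% in mcPCs as reported, 0.526% and 0.416% without erythrocyte genes, and 0.551% and 0.145% with the 4 further collagen rows, an alternative added after the data were seen. TPM with pseudocounts of 0.1 and 1 lowered the median of all genes to -1.72 and -1.43. Among members past 2-fold, the sign turned there for Col16a1 (-0.010 and -0.0067), Col20a1 (-0.24 and -0.077) and Plod1 (-0.20 and -0.19). It also turned for both Col23a1 rows (-0.62 and -0.24 for the first, -0.49 and -0.15 for the second). All of these stayed above 0 on the other scales. Members within 2-fold turned there too, among them Col6a2 (0.57 to -1.25 with a pseudocount of 0.1) and P4ha1 (0.80 to -1.02). On TPM relative to the median gene the sign turned for Col28a1 (0.021). On counts scaled without erythrocyte genes, which ignore transcript length, Col4a4, Col1a1 and P4ha2, all within 2-fold, turned to 0.43, 0.18 and 0.17. Col4a4 was -0.32 on TPM scaled without those genes. The counts under the other alternatives were within 1.5 times those reported. No paired analysis was possible because the table gives means only, for which reason no sample was left out in turn either, and intervals cover counting error only. Members with the fewest reads per sample, such as Col6a4, Col6a6, Col26a1 and P4ha3, are the least certain.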

Other observations

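The table holds 4 collagen rows under symbols that the rule does not match. Besides the 2 rows of Col1a2, they are a row described as alpha-3(IV)-like, at 24.8 TPM in VSMCs and at 17.0 in mcPCs with a log2 ratio of 1.29 (1.22 to 1.35), and a row described as alpha-1(XV)-like, at 1.76 and 0.505 TPM with a log2 ratio of 0.05 (-0.10 to 0.20). The first lay on the opposite side of 0 from Col4a3, whose log2 ratio was -0.19, and the second differed from Col15a1, at -0.96. Reads may be split between such rows and their named copies, which was not tested.

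Col4a3bp, the ceramide transfer protein that the rule takes in by its symbol, stood at 18.8 TPM in VSMCs and at 3.54 in mcPCs, with a log2 ratio of -0.62 (-0.67 to -0.57), within 2-fold.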
